A study of Mus musculus with 8 samples.

Results

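Mesenchymal stem and progenitor cells (MSPCs) of the bone marrow are the stromal cells that supply hematopoietic stem cells with CXCL12 and stem cell factor, and some of them give rise to bone-forming osteoblasts. The data described here are the RNA levels of 9 osteogenic lineage genes in these cells. They were taken from the deposited table by matching each Ensembl identifier without its version to the symbols Runx2, Dlx5, Sp7, Alpl, Ibsp, Spp1, Bglap, Bglap2 and Dmp1, and all 9 were found among 52636 genes. 8 of the 9 had a count in every library and were tested, among 14598 genes in all. Bglap2 had no count in 2 libraries and is given from a fit without this filter.

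The study deleted the chemokine receptor gene Cxcr4 in hematopoietic progenitors with Flk2-cre, which acts in multipotent progenitors and their progeny and not in MSPCs, and asked how the niche cells respond. MSPCs of 4 control mice (CTR, Flk2-cre+ Cxcr4fl/+) and 4 conditional knockout mice (cKO, Flk2-cre+ Cxcr4fl/fl), all C57BL/6 and 6 weeks old by the labels, gave 1 library each. The CTR mice thus also carry Flk2-cre and a floxed Cxcr4 allele, and both genotypes carry GFP under control of the stem cell factor gene Kitl, which served in the sort. The paper also used a Kitl-GFP allele to lower membrane-bound stem cell factor. In cKO mice heterozygous for it, this factor and stem cell numbers were reported at control levels. Whether the sequenced cKO mice had more stem cells than CTR is not given. The cells were sorted as CD45- Ter119- CD31- CD144- PDGFRα+ SCF-GFP+. The number in brackets in each sample title, which the labels do not explain, lies between 26 and 32 for CTR2, CTR4, cKO2 and cKO4 and between 67 and 86 for CTR1, CTR3, cKO1 and cKO3, so that each range holds 2 mice of each genotype.

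Osteoblast differentiation proceeds from a stage set by transcription factors, with RUNX2 first and osterix, the product of Sp7, downstream of it, to a stage of matrix production and mineralization. Alkaline phosphatase, bone sialoprotein and osteopontin appear along this path, and osteocalcin marks the mature osteoblast. DMP1 and sclerostin are products of the osteocyte, the cell that the osteoblast becomes once it is embedded in bone. Stromal cells rich in CXCL12 that also express early osteogenic genes are known in the bone marrow.

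Each library held 31047344 to 38216877 counts in 18366 to 20684 genes. The cells carried the markers of CXCL12-abundant reticular cells, of which Pdgfra and Kitl were selected by the sort itself. All 10 listed markers had a count in every library, with Cxcl12 at 5481 ± 501 CPM per kb of exon (SD, n = 8, with CPM the count scaled to a common library size), and their summed level ranged from 58046 to 75067 CPM. The 8 endothelial markers summed to between 3.73 and 8.28 CPM. Pecam1 and Cdh5 on this list encode CD31 and CD144, which the sort excluded. Of the 10 osteoclast and macrophage markers, 6 had a count in every library, with Ctsk at 205 CPM, and the osteoclast genes Oscar, Dcstamp and Ocstamp were at 0 in every library. Of the 10 chondrocyte markers, 4 had a count in every library, with Comp at 60.1 CPM and Sox9 at 26.7 CPM, and Acan, Col9a1, Matn3 and Chad were at 0 in every library. Cxcr4 itself had 4 to 19 counts per CTR library and 0 to 12 per cKO library, so that its counts in the niche cells do not check the genotype. No library was set aside.

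The mouse has near-identical copies of the osteocalcin gene side by side on chromosome 3, of which Bglap and Bglap2 are members of the list. Their coding sequences are shown here because they set how far the counts of the copies can be told apart. Both run on the minus strand of GRCm38, Bglap at chr3:88383638-88384415 and Bglap2 at chr3:88377873-88378650 with introns removed, and the capitals mark the 4 positions at which they differ.
Bglap: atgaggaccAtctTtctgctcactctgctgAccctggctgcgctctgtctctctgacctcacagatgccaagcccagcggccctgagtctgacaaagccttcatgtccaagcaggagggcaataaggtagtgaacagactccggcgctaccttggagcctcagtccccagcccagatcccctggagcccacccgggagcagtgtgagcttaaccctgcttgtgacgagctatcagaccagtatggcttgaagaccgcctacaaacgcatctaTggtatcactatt
Bglap2: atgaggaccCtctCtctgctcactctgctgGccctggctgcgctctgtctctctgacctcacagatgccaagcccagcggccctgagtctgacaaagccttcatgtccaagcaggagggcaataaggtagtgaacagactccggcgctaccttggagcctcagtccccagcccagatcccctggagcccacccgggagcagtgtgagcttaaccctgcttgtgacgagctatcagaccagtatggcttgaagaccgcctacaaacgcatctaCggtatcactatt
Counted from 1 at the first base of the start codon, with the base of Bglap first, the differences are A10C, T14C, A31G and T273C. The coding sequences of 285 bases are thus 98.6% identical. Of all windows of 69 bases in the Bglap transcript, the length of a read after trimming, 68.3% also occur in the Bglap2 transcript. Taken alone, a read from such a window fits both genes, and the counts of Bglap and Bglap2 are therefore uncertain as to which copy they stand for. Reads were paired, and how often the mate tells the copies apart was not tested. How reads that fit both copies were counted is not given, and if they were left out the counts are too low. Bglap3, the third copy, shares 6.18% of the windows of the Bglap transcript and 20.8% of those of the Bglap2 transcript.

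The 3 genes at the extremes of the list were also compared in the bases before their start. RefSeq holds promoters of 300 bases (250 before and 50 after the start, GRCm38.p6) for 6 of the 9 genes, and the bases that lie before both the RefSeq and the GENCODE start are shown for Ibsp and Spp1, the genes with the highest level, and for Bglap, one of those with the lowest. They lie at chr5:104299037-104299170 (plus strand), chr5:104434861-104435110 (plus strand) and chr3:88384467-88384716 (minus strand). Capitals mark the RUNX core motif, searched as TGTGGT or, on the opposite strand, ACCACA.
Ibsp: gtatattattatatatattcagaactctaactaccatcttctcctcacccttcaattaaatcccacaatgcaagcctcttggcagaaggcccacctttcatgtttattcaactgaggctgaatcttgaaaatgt
Spp1: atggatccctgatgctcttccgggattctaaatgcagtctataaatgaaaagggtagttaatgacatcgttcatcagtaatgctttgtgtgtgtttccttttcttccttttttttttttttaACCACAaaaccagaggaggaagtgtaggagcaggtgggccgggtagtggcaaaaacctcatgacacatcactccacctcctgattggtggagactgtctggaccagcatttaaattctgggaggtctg
Bglap: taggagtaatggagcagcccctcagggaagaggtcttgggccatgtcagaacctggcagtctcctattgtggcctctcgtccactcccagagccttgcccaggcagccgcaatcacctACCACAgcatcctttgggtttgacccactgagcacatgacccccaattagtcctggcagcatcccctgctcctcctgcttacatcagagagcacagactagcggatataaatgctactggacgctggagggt
The motif lies 128 bases before the start in Spp1 and 132 bases before it in Bglap, on the strand opposite to the gene in both. It does not occur in the promoter of Ibsp. Of that promoter, 134 bases lie before both starts, compared with 250 for Spp1 and for Bglap. Of the 9 promoters listed for the 6 genes, 4 held the motif, compared with 16.8% of 32851 promoters. A match describes the letters only and is not evidence that RUNX2 binds there.

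Levels of different genes were compared as CPM per kb of exon, over all 8 mice. The osteogenic genes spanned from the very top of the transcriptome to near the limit of detection. Ibsp, which encodes bone sialoprotein, a matrix protein that binds collagen and nucleates mineral, was at 5170 ± 1043 CPM per kb (SD, n = 8) and ranked 4 among 52403 genes by this measure. Scaled to a common library size, its counts corresponded to between 0.776% and 1.38% of a library. Spp1, which encodes osteopontin, followed at 944 ± 294 CPM per kb and rank 32. In each mouse Ibsp exceeded Spp1, by 3.15- to 10.5-fold. Alpl, the tissue-nonspecific alkaline phosphatase that removes the mineral inhibitor pyrophosphate, was at 72.5 ± 16.3 CPM per kb. The ranges of these 3 genes did not overlap.

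The transcription factors lay lower and close together. Dlx5, a homeobox factor that acts early in osteoblast formation, was at 28.9 ± 5.08 CPM per kb, Sp7 at 21.3 ± 5.81 and Runx2 at 18 ± 2.36. All 8 libraries had Alpl above Dlx5. Dlx5 exceeded Sp7 in 7 of 8 mice and Sp7 exceeded Runx2 in 5 of 8, so that the order of neighbors among the 3 factors was not the same in every mouse. Neighbors in this order overlapped, while Dlx5 (22.3 to 37.8 CPM per kb) lay above Runx2 (14.7 to 21.9) in every mouse. The order rests on the division by all annotated exon bases, 8837 for Runx2 and 2263 for Dlx5. By CPM it was reversed in every mouse, with Runx2 at 130 to 194 and Dlx5 at 50.5 to 85.5.

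The osteocalcin genes and Dmp1 were the lowest of the list, though Dmp1 still had 147 to 524 counts per library. Bglap was at 2.7 ± 1.8 CPM per kb, Dmp1 at 2.6 ± 1.29 and Bglap2 at 1.72 ± 1.51, with ranges that overlapped. Runx2, the lowest of the genes above them, did not overlap with Bglap and exceeded it by 2.45- to 21.6-fold in single mice. The mean of Ibsp was 1989-fold that of Dmp1 and 1914-fold that of Bglap. In bulk RNA a low level can stand for few cells of a type or for little RNA in each cell, and these cannot be told apart. For Bglap and Bglap2 it can also stand for reads that fit both copies and went uncounted, which was not tested.

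**Figure D1:**
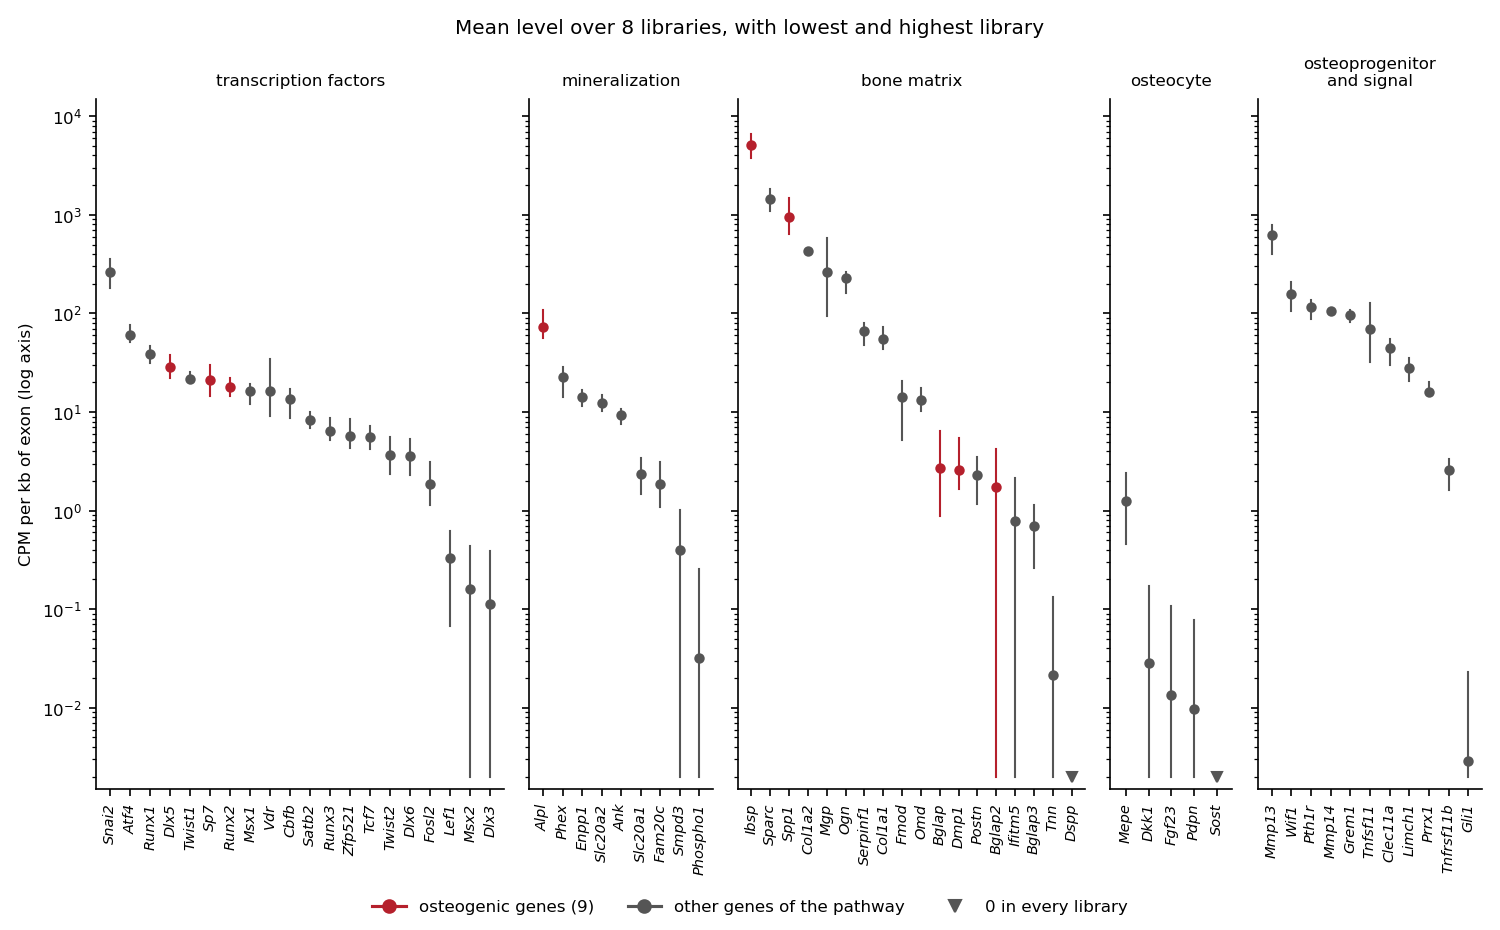
Mean level of the 9 osteogenic genes (red) and 54 other genes of the pathway (gray) in CPM per kb of exon on a log axis, grouped by role. Circles are means of 8 libraries, lines run from the lowest to the highest library (to the foot of the axis where a library is at 0), and triangles mark genes at 0 in every library. Ibsp is highest at 5170, Bglap, Dmp1 and Bglap2 lie between 1.72 and 2.7, and Sost and Dspp are at 0.

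The other genes of the pathway were listed by role, 54 in all, of which 42 had a count in every library. Among bone matrix genes the highest were Sparc (osteonectin) at 1434 ± 215 CPM per kb and the collagen chain gene Col1a2 at 430 ± 18.2, both below Ibsp. Among transcription factors Snai2, a repressor of the SNAIL family, was at 262 ± 65.1 CPM per kb and Atf4, which acts with RUNX2 in osteoblasts, at 60.7 ± 9.79, both above Runx2, Sp7 and Dlx5. Among genes of mineralization the highest were Phex, an endopeptidase gene, at 22.4 ± 5.48 CPM per kb and Enpp1, which makes pyrophosphate, at 14.2 ± 2, both below Alpl. Among progenitor and signal genes they were the collagenase gene Mmp13 at 622 ± 135 CPM per kb and the Wnt inhibitor gene Wif1 at 158 ± 35. The genes listed under the osteocyte role were low. Mepe was at 1.26 ± 0.651 CPM per kb, Dkk1 at 0.0286 ± 0.0616, and Sost, which encodes sclerostin, had 0 counts in every library.

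Ibsp, Spp1 and Dmp1 belong to the SIBLING family, small integrin-binding proteins of bone and tooth whose 5 genes stand in a row on the plus strand of chromosome 5, within 270 kb in GRCm38. Neighbors in this cluster differed widely in level. Dspp (chr5:104170712-104180127) had 0 counts in every library. Dmp1 (chr5:104202613-104214102) had 147 to 524 counts per library. Ibsp (chr5:104299171-104311469) had 249753 to 511706. Mepe (chr5:104325329-104338611), which starts 13.9 kb after the end of Ibsp, had 27 to 126. Spp1 (chr5:104435118-104441050) had 36582 to 78952. Along the cluster, low and high genes thus alternated from Dmp1 to Spp1, with Mepe between the pair of high genes.

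**Figure D2:**
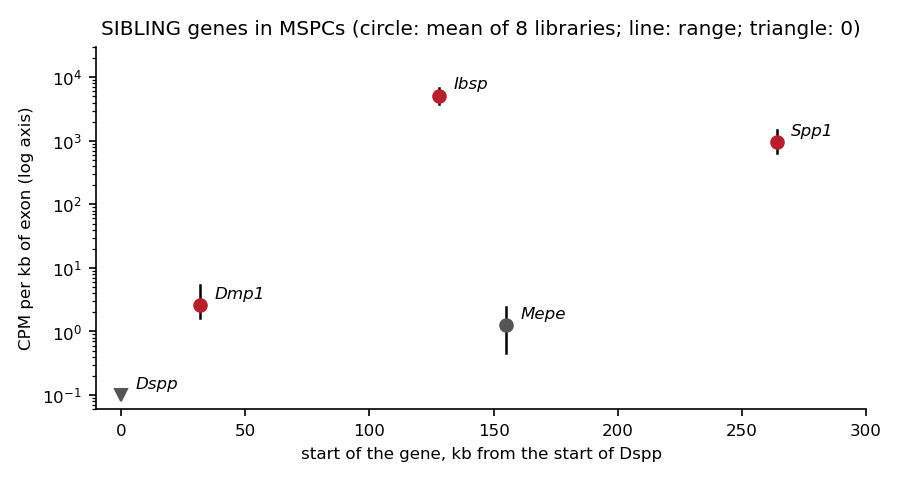
Level of the 5 SIBLING genes in CPM per kb of exon on a log axis against the start of each gene in kb from the start of Dspp. Circles are means of 8 libraries, lines the range, red marks the members of the list and the triangle marks Dspp at 0. Ibsp at 5170 and Spp1 at 944 stand on either side of Mepe at 1.26.

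The comparison of CTR with cKO asks whether osteogenic genes of the niche cells differ when hematopoietic progenitors lack CXCR4. No osteogenic gene passed the threshold of an adjusted p under 0.05, and neither did any of the 14598 genes tested (0%). The smallest adjusted p over all genes was 0.894 in the quasi-likelihood test of edgeR, adjusted by Benjamini-Hochberg. Without adjustment, 646 genes (4.43%) had a p under 0.05, of which 0 were among the 8 osteogenic genes tested. The likelihood ratio test of DESeq2 called 22 genes, and 47 with the title numbers as a term, none of them osteogenic. The paper's own likelihood ratio test, corrected for batch, did report differentially expressed genes between the genotypes. The 4 CTR and 4 cKO mice did not overlap in 383 genes (2.62%), and overlapped in all 9 osteogenic genes. Log2 fold changes of cKO over CTR lay between -0.054 and 0.33 for the 8 genes tested, with a median size of 0.14, which was also the median size over all genes tested. The intervals below are 95% intervals from edgeR, and the adjusted p was 0.999 for each of the 8.

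Runx2, at chr17:44495987-44814797, varied least from mouse to mouse among the genes tested on the list. Its level was 169, 130, 145 and 194 CPM in CTR1 to CTR4 and 157, 167, 139 and 174 CPM in cKO1 to cKO4. The cKO values lay within the range of CTR, and the log2 fold change of -0.0018 (SE 0.13) had an interval of -0.30 to 0.30.

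Dlx5, at chr6:6877805-6882085, was at 77.1, 59.8, 61.2 and 68.3 CPM in CTR1 to CTR4 and 65.5, 55.1, 50.5 and 85.5 CPM in cKO1 to cKO4. The lowest and the highest value were both in cKO, in cKO3 and cKO4. Its log2 fold change was -0.054 (SE 0.17, interval -0.43 to 0.32).

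Sp7, at chr15:102356606-102367182, was at 101, 52.1, 49.3 and 65.4 CPM in the CTR mice and 94.8, 58.6, 87.1 and 70.2 CPM in the cKO mice. CTR1 was the highest of all and CTR3 the lowest. The log2 fold change was 0.21 (SE 0.24, interval -0.31 to 0.74). Without CTR1 it was 0.48, and without CTR3 it was 0.086.

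Alpl, at chr4:137741733-137796384, had the largest fold change of the 8 genes. Its level was 295, 228, 272 and 242 CPM in CTR1 to CTR4 and 438, 253, 307 and 305 CPM in cKO1 to cKO4. 3 of the 4 cKO values lay above the highest CTR value, and cKO2 lay within the CTR range. The log2 fold change was 0.33 (SE 0.16, interval -0.034 to 0.69), with an unadjusted p of 0.071 and an exact two-sided permutation p of 0.143 over 70 assignments. It was 0.15 without cKO1.

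Ibsp was at 9716, 11527, 7756 and 10748 CPM in CTR1 to CTR4 and at 8310, 13798, 10368 and 13308 CPM in cKO1 to cKO4. cKO2 and cKO4 were above all CTR mice, and cKO1 and cKO3 were among them. The log2 fold change was 0.20 (SE 0.19, interval -0.21 to 0.62), and it was 0.098 without CTR3 and 0.33 without cKO1.

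Spp1 was at 1246, 1171, 1964 and 1696 CPM in CTR1 to CTR4 and at 1157, 1043, 2427 and 1736 CPM in cKO1 to cKO4. CTR3, CTR4, cKO3 and cKO4 were the 4 highest libraries, so that the spread within each genotype exceeded the difference between them. The log2 fold change was 0.067 (SE 0.27, interval -0.53 to 0.67).

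The osteocalcin genes and Dmp1 were low and had wide intervals. Bglap had 77, 65, 39 and 40 counts in CTR1 to CTR4 and 34, 19, 129 and 40 counts in cKO1 to cKO4. The lowest and the highest library were both cKO, and the log2 fold change of -0.039 (SE 0.60) had an interval of -1.37 to 1.30. Bglap2 had 0, 65, 26 and 42 counts in CTR1 to CTR4 and 13, 0, 50 and 24 counts in cKO1 to cKO4. The 0 counts in CTR1 and cKO2 allow up to 0.097 and 0.085 CPM, a limit of 3 counts that covers counting error only. Fitted without that filter, Bglap2 had a log2 fold change of -0.61 (SE 1.40, interval -3.73 to 2.50).

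Dmp1 was at 5.05, 9.78, 5.19 and 5.54 CPM in the CTR mice and at 7.29, 14.9, 4.52 and 5.18 CPM in the cKO mice. CTR2 and cKO2 were the highest library of their genotype. The log2 fold change was 0.32 (SE 0.41, interval -0.60 to 1.25), and it was -0.18 without cKO2.

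**Figure D3:**
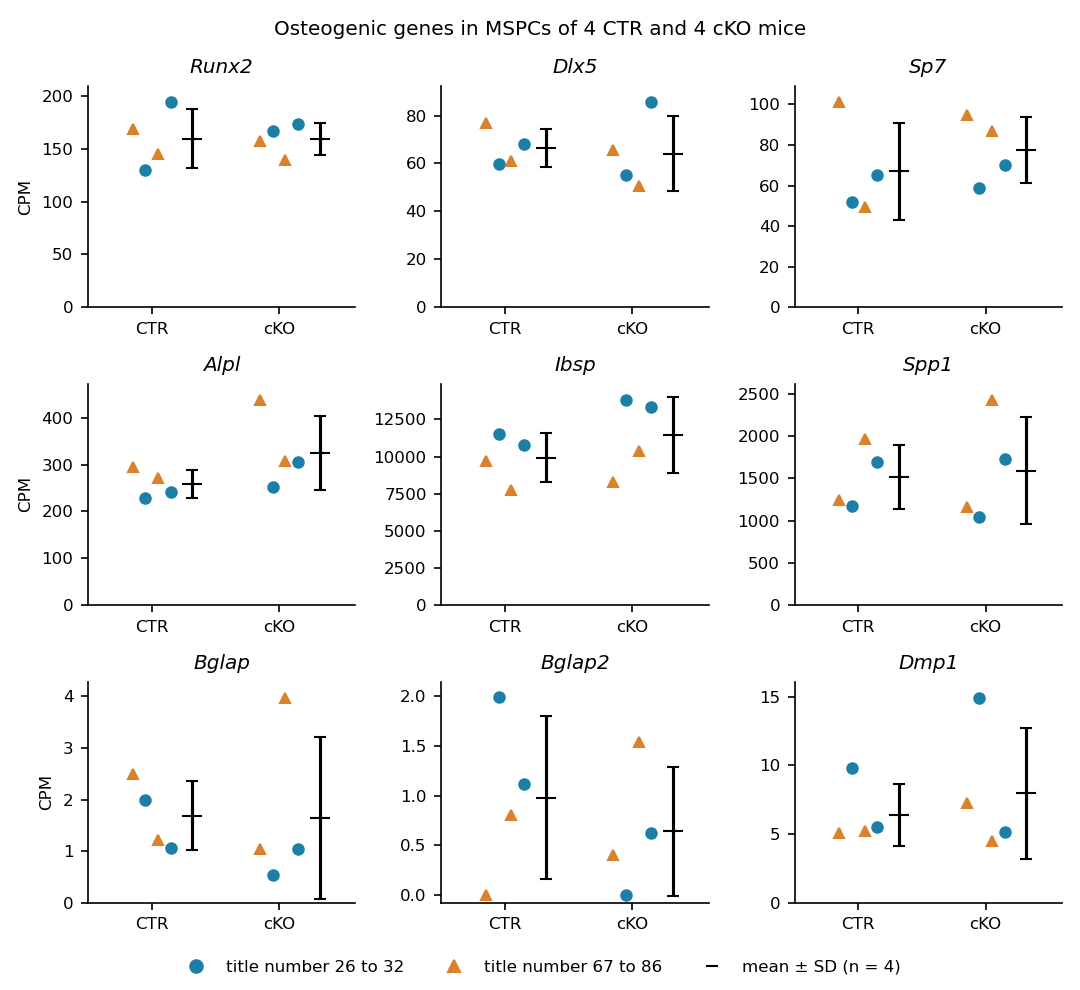
Level of each osteogenic gene in CPM in every library, by genotype, with an axis that starts at or just below 0 for each gene. Circles are libraries with title numbers 26 to 32, triangles those with 67 to 86, and bars show the mean ± SD of 4 mice. CTR and cKO overlap for all 9 genes, while Ibsp is lower in all 4 libraries of 67 to 86 than in those of 26 to 32.

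Within each range of title numbers, where 2 CTR mice stand against 2 cKO mice, the differences of mean log2 CPM had the same sign in both for Sp7 (0.14 in 26 to 32 and 0.36 in 67 to 86), Alpl (0.24 and 0.37), Ibsp (0.28 and 0.097) and Dmp1 (0.26 and 0.16). They had opposite signs for Runx2, Dlx5, Spp1, Bglap and Bglap2. The genotype difference itself was compared between the ranges with an interaction term, which passed for 0 of 14598 genes (0%) in edgeR, with 502 at an unadjusted p under 0.05 and 20 called by the likelihood ratio test of DESeq2, none of them osteogenic. Among the 8 osteogenic genes the interaction lay between -0.39 and 1.38 on the log2 scale, with the highest for Bglap (SE 1.06, interval -1.07 to 3.83).

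Of the 42 other genes of the pathway that were tested between genotypes, 16 had a higher and 26 a lower mean in cKO, with a median log2 fold change of -0.077 compared with -0.0013 over all genes, and 0 passed the threshold. Serpinf1 and Mepe had an unadjusted p under 0.05 and are named after their values were seen. Serpinf1, which encodes the matrix protein PEDF, was at 169, 190, 191 and 180 CPM in CTR1 to CTR4 and at 118, 113, 132 and 153 CPM in cKO1 to cKO4. These groups did not overlap (log2 fold change -0.50, SE 0.11, unadjusted p 0.00124 and adjusted p 0.999 in edgeR). In DESeq2 its adjusted p was 0.0707 in the likelihood ratio test, 0.064 in the Wald test and 0.0486, past the threshold, in the likelihood ratio test that includes the title numbers. Mepe had 126, 107, 80 and 58 counts in the CTR mice and 54, 27, 44 and 68 counts in the cKO mice (log2 fold change -1.04, SE 0.41, unadjusted p 0.0292 and adjusted p 0.999 in edgeR).

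Markers of other cells were set beside this comparison, since the sort may not remove all such cells. The 12 blood cell markers summed to between 67.9 and 212 CPM in CTR and between 147 and 258 CPM in cKO, which overlap. All 6 tested genes of this list had a higher mean in cKO (median log2 fold change 0.48), and 0 passed the threshold. The 10 chondrocyte markers summed to between 72.9 and 125 CPM in CTR and between 58.6 and 103 CPM in cKO. Of their 4 tested genes, 2 were higher and 2 lower in cKO, and 1 had an unadjusted p under 0.05 in edgeR. The 10 osteoclast and macrophage markers summed to between 215 and 238 CPM in CTR and between 224 and 270 CPM in cKO, with Ctsk alone at 186 to 241 CPM. Of their 6 tested genes, 4 were higher and 2 lower in cKO. Their log2 fold changes lay between -0.64 and 1.22, and 1 had an unadjusted p under 0.05 in edgeR. None of these genes passed the adjusted threshold. The 8 smooth muscle and pericyte markers summed to between 149 and 331 CPM in CTR and between 154 and 294 CPM in cKO, with Myl9 alone at 120 to 301 CPM. Of their 4 tested genes, 3 had a lower mean in cKO, with a median log2 fold change of -0.58 and Rgs5 at -1.20 (SE 0.51, unadjusted p 0.0412 and adjusted p 0.999 in edgeR). The 8 fibroblast markers summed to between 140 and 274 CPM in CTR and between 79.8 and 208 CPM in cKO. Of these, Fbln1 alone was at 75.2 to 265 CPM, with a log2 fold change of -0.79 (SE 0.32, unadjusted p 0.0327 and adjusted p 0.999 in edgeR). Rgs5 and Fbln1 are named after their values were seen. Their part in the levels of the osteogenic genes was not tested.

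The 2 ranges of title numbers were compared with genotype as a term, as 67 to 86 over 26 to 32. Of all genes, 2 (0.0137%) passed the adjusted threshold, 1694 (11.6%) had an unadjusted p under 0.05, and 1003 (6.87%) did not overlap between the ranges. No osteogenic gene passed the adjusted threshold, Ibsp and Alpl had an unadjusted p under 0.05, and Ibsp was the 1 osteogenic gene whose libraries did not overlap.

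Ibsp was at 12345 ± 1444 CPM in 26 to 32 and at 9038 ± 1211 CPM in 67 to 86 (SD, n = 4 each), a log2 difference of -0.44 (SE 0.12, interval -0.70 to -0.18, unadjusted p 0.00397 and adjusted p 0.223 in edgeR). The exact permutation p of 0.0286 was the smallest that 70 assignments can give. The difference of mean log2 CPM was -0.36 within CTR and -0.55 within cKO. Alpl was at 257 ± 33.7 CPM in 26 to 32 and at 328 ± 74.6 CPM in 67 to 86, a log2 difference of 0.34 (SE 0.12, interval 0.064 to 0.62, adjusted p 0.35 in edgeR), and the ranges overlapped. The intervals of Runx2, Dlx5, Sp7, Spp1, Bglap and Dmp1 included 0, with Bglap at 0.96 (interval -0.32 to 2.24) and Dmp1 at -0.67 (interval -1.52 to 0.17). Without cKO3 the difference of Bglap was 0.32, and without cKO2 that of Dmp1 was -0.28. Alpl was at 0.22 without cKO1.

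**Figure D4:**
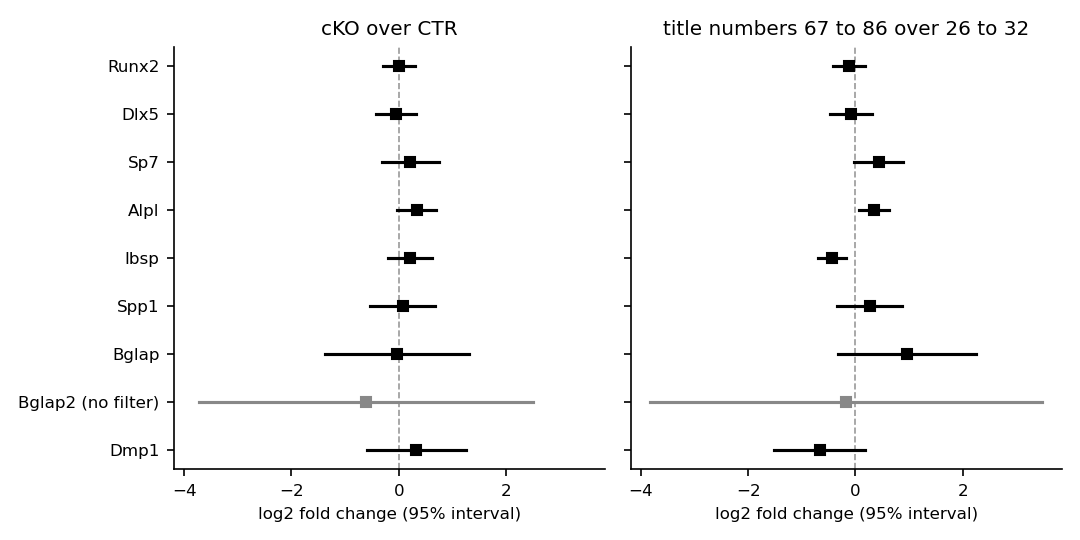
Log2 fold change of each osteogenic gene with its 95% interval from edgeR, for cKO over CTR (left) and for title numbers 67 to 86 over 26 to 32 (right). Bglap2 (gray) comes from the fit without a filter on counts. All intervals on the left include 0, and on the right those of Ibsp (-0.70 to -0.18) and Alpl (0.064 to 0.62) do not.

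The summed levels of marker lists were also compared. The 10 CXCL12-abundant reticular cell markers summed to between 58046 and 65327 CPM in 26 to 32 and between 66889 and 75067 CPM in 67 to 86, which do not overlap. As a list they did not move one way, with 4 genes higher and 6 lower in 67 to 86 (median log2 difference -0.062). The higher sum was carried by Cxcl12, at 41783 ± 2404 CPM in 26 to 32 and 47846 ± 2975 CPM in 67 to 86, and by the lipase gene Lpl, at 5600 ± 570 and 8986 ± 975 CPM (SD, n = 4 each). The 12 blood cell markers summed to between 67.9 and 183 CPM in 26 to 32 and between 189 and 258 CPM in 67 to 86. This separation rested on the immunoglobulin gene Igkc at 84.7 CPM in CTR3. Without Igkc the sums ran from 67.2 to 181 CPM and from 127 to 258 CPM, which overlap. The part of these markers in the levels of Ibsp and Alpl was not tested. Among the 42 other genes of the pathway, 21 were higher and 21 lower in 67 to 86, and 0 passed the adjusted threshold. Those with the smallest p, named after their values were seen, were Vdr, the vitamin D receptor gene (log2 difference -1.02, SE 0.23, adjusted p 0.189 in edgeR), and Clec11a, which encodes the osteogenic factor osteolectin (0.48, SE 0.11, adjusted p 0.201 in edgeR). The likelihood ratio test of DESeq2 called both, with an adjusted p of 0.00168 for Vdr and 0.0192 for Clec11a, and also Ibsp (0.0269). Both did not overlap between the ranges.

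The 8 mice differed from each other most in the low genes. The SD of log2 CPM was taken within each genotype and pooled. It was 0.20 for Runx2, 0.26 for Dlx5 and for Alpl, 0.30 for Ibsp, 0.40 for Sp7, 0.47 for Spp1, 0.63 for Dmp1 and 0.91 for Bglap. The median was 0.30 over all genes tested. It was 0.23 over those with a mean of 10 CPM or more, as the 6 genes other than Dmp1 and Bglap have. To see whether the osteogenic genes rose and fell together from mouse to mouse, all 36 pairs were correlated over the 8 libraries. No pair passed an adjusted p of 0.05 in exact permutation tests over 40320 orders (smallest adjusted p 0.642 for Pearson's r and 0.729 for Spearman's rho), and 14 of the 36 had a positive r.

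The pair with the smallest p was Spp1 and Dmp1, which varied in opposite directions (r = -0.77, exact permutation p = 0.0182, adjusted 0.642, and rho = -0.81, exact permutation p = 0.0218, adjusted 0.729, n = 8). Without the 2 libraries farthest from the median of Spp1, r was -0.67. Sp7 and Alpl followed in the same direction (r = 0.71, exact permutation p = 0.0357, adjusted 0.642, and rho = 0.69, exact permutation p = 0.0694, adjusted 0.729, n = 8), with r at 0.67 without the 2 libraries farthest from the median of Sp7. Runx2 and Sp7, the factors that act in sequence, had an r of 0.23 (exact permutation p = 0.575, adjusted 0.917) and a rho of 0.31 (exact permutation p = 0.462, adjusted 0.831). A range of title numbers or a genotype holds only 4 libraries, too few for a value within it.

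Genes whose log2 CPM followed each osteogenic gene most closely over the 8 libraries were sought among 9406 genes that averaged 10 CPM or more, as a description of these libraries, which share their depth and title numbers. Their r lay between 0.92 and 0.99, and 0 of the 24 belonged to the pathway list. Runx2 was followed by Map4 (r = 0.94), Crkl and Fut10, and Dlx5 by Tent5a (r = 0.96), Lima1 and Slc25a32. Sp7 was followed by Dcaf4 (r = 0.99), 8030451A03Rik and Ccbe1, and Alpl by Txndc12 (r = 0.97), Suds3 and Ttc13. Ibsp was followed by Gosr1 (r = 0.96), Mroh1 and H2-Q5, and Spp1 by Gipc1 (r = 0.99), Pphln1 and Il11ra1. Bglap was followed by Psmd9 (r = 0.98), Lars and Kat14, and Dmp1 by Rnf44 (r = 0.95), Etnk1 and Slc30a7.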

How the data were processed

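Poly(A) RNA of sorted MSPCs was sequenced in 8 libraries, 4 from CTR and 4 from cKO mice. According to the methods, the authors trimmed 7 bases from paired reads of 76 bases, used HISAT2 to align them to GRCm38 and HTSeq to count them per gene, and deposited raw counts of 52636 genes without normalization. The authors compared genotypes with a likelihood ratio test of DESeq2 that corrected for batch, which the labels do not define. Tool versions are not given in the sources used here. Symbols were matched for 52403 genes by Ensembl identifier. Coordinates and exon lengths are those of GENCODE M21, which is not the release given in the methods. The methods give the mice's age as a range above the age in the labels.

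Genes without a 0 among the 8 counts were compared by the quasi-likelihood functions glmQLFit and glmQLFTest of edgeR 4.0.16 with TMM scaling (Benjamini-Hochberg over all genes tested, threshold 0.05) in R 4.3.3, without covariates for genotype, with genotype for the title numbers and with both and their interaction. Whether the libraries come from separate sorts is not given, so that p-values measure the spread between these mice. CPM per kb divides TMM-scaled CPM by the exon bases of a gene. Log2 CPM used a prior count of 2. Exact permutation tests were two-sided. Alternatives were other scalings and filters, DESeq2 1.42.0, limma-voom (limma 3.58.1), a term for the title number group, the replicate number as a block and each library left out in turn. 3 alternatives were added after the data were seen. The scripts' tests were checked on simulated data. The members and lists were chosen with earlier results of these data known. Genes named in the text are the 9 members, the 2 highest pathway genes of each role, pathway genes past the threshold (0), and the 3 genes most like each member, with Serpinf1, Mepe, Vdr, Clec11a, Rgs5 and Fbln1 named after their values were seen as well as marker genes. Promoters are from RefSeq.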

Additional observations from a re-analysis of the deposited data

Results flagged for a closer look

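Dmp1 in CTR2 stood apart from the other CTR libraries. At 9.78 CPM it lay above 5.05, 5.19 and 5.54 CPM, a gap that takes up 0.86 of the range of log2 CPM in the group, past Dixon's critical value for 4 samples. 18 groups of 4 libraries were examined, and chance alone gives about 0.9 such gaps.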

How the results depend on the processing

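The direction of the osteogenic genes between genotypes held in 134 of 154 alternative fits and their call in all of them. It reversed for Runx2 with upper quartile scaling (0.00019), without a filter (0.0026), with limma-voom (0.0091), with the replicate block (0.009), and without CTR1 (0.027), CTR4 (0.10), cKO1 (0.00018) or cKO3 (0.059), for Dlx5 without CTR1 (0.024), cKO2 (0.011) or cKO3 (0.045), for Bglap without CTR1 (0.21), CTR2 (0.044), cKO1 (0.12), cKO2 (0.25) or cKO4 (0.13), for Spp1 without CTR1 (-0.017), CTR2 (-0.044) or cKO3 (-0.21), and for Dmp1 without cKO2 (-0.18). With single libraries left out the values ran from -0.094 to 0.10 for Runx2, -0.22 to 0.045 for Dlx5, -0.95 to 0.25 for Bglap, -0.21 to 0.22 for Spp1, -0.18 to 0.59 for Dmp1, 0.098 to 0.33 for Ibsp, 0.15 to 0.43 for Alpl and 0.086 to 0.48 for Sp7. Genes called between genotypes numbered 0 in edgeR, 1 without a filter, 1 with filterByExpr, 22 with DESeq2's likelihood ratio test, 23 with its Wald test, 47 once the title number group was added to the likelihood ratio test, 1 with that term in edgeR and no filter, 0 with the replicate block and 0 with any library left out. None of the osteogenic genes was among them. Same-numbered libraries deviated together with correlations of 0.131, 0.176, 0.0844 and 0.0572, compared with -0.155 to 0.128 between libraries of different number. These values do not settle whether the numbers pair the mice, and the main fit did not pair them.

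Between the title numbers the direction reversed for Dlx5 without cKO3 (0.026) or cKO4 (0.095) and in CTR libraries only (0.11), and for Spp1 without cKO3 (-0.0037), with ranges of -0.19 to 0.095 and -0.0037 to 0.43 over single libraries left out. These ranges were 0.32 to 1.30 for Bglap, -0.90 to -0.28 for Dmp1, 0.22 to 0.42 for Alpl, 0.21 to 0.61 for Sp7, -0.25 to -0.018 for Runx2 and -0.53 to -0.36 for Ibsp. Genes called numbered 2 in edgeR, 1 with DESeq2 size factors, 4 without a filter, 342 with DESeq2's likelihood ratio test, 0 in CTR or cKO libraries alone and 0 to 4 with a library left out. The likelihood ratio test also called 1 osteogenic gene, Ibsp (adjusted p 0.0269), and the pathway genes Vdr (0.00168) and Clec11a (0.0192), while Serpinf1 passed between genotypes (0.0486) in the test that includes the title numbers. The interaction called 0 genes in edgeR and 20 with DESeq2's likelihood ratio test. The cause of these differences was not tested. The intervals of Bglap rest on counts of 19 to 129.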
